A study of Rattus norvegicus with 9 samples.

Results

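Motile cilia genes were examined in the lumbar spinal cord of rats with a sham operation, with a nerve injury, and with the same injury plus a drug combination. The genes were taken by name: every row of the expression table whose symbol starts with Cfap, Dnah, Dnai, Dnaaf, Rsph, Drc or Tekt, or is Foxj1, with a mean of at least 0.5 TPM (transcripts per 1000000, a level scaled by transcript length and by the total of the sample) over the 9 samples. The names fitted 60 rows, of which 51 reached that level, out of 16721 loci of 34890 that did so. These 51 comprised 22 of 28 Cfap, 7 of 10 Dnah, 2 of 2 Dnai, 5 of 5 Dnaaf, 7 of 7 Rsph, 3 of 3 Drc and 5 of 5 Tekt genes. Foxj1 was not analysed here. The 9 genes under the level were Cfap53, Cfap58, Cfap58l1, Cfap74, Cfap97d1, Cfap221, Dnah5, Dnah8 and Dnah17. Just inside it stood Dnah2, at a mean of 0.518 TPM, and Dnah7, at 0.537 TPM. Just outside stood Dnah5, at 0.389 TPM, and Cfap74, at 0.366 TPM.

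Per the study's methods, total RNA came from L3-L6 spinal cord, of the ipsilateral side (that of the operation). The rats were male wild-type Sprague Dawley, with 3 samples in each of 3 groups labelled as biological replicates. The age of the animals was not given in the sources used here. The JA group had a sham operation and received saline, the SNI group had the spared nerve injury and received saline, and the PLM group had the same injury and received paeoniflorin with liquiritin. The spared nerve injury ties and cuts the tibial and common peroneal nerves and leaves the sural nerve whole, so that part of the sciatic supply of the hind paw is lost. Saline or drug was given by gastric infusion for 21 days after the operation. The labels give 20.65 mg/mL paeoniflorin in every PLM sample, with liquiritin at 3.98 mg/mL in PLM 1, 3.99 mg/mL in PLM 2 and 3.100 mg/mL in PLM 3. The methods of the study give a single liquiritin concentration for the whole group, the one labelled for PLM 1, and the PLM samples were treated here as 1 dose. No sample of uninjured rats given the drugs was among them, so the drug effect is read only on top of the injury. Markers of spinal cord tissue were present throughout: lists of oligodendrocyte and neuron markers summed to 46772 to 57025 TPM and to 2650.5 to 6173 TPM in a sample.

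Motile cilia beat through an axoneme of doublet microtubules around a central pair. Outer and inner dynein arms slide the doublets, radial spokes and the nexin-dynein regulatory complex control that sliding, and tektins and many Cfap proteins lie within or along the doublets. In the spinal cord the cells that bear such cilia are the ependymal cells lining the central canal, which move cerebrospinal fluid, and the program is switched on by the transcription factor FOXJ1 together with factors of the RFX family that bind a palindrome called the X-box. In whole tissue, fewer cells of a type and less RNA per cell cannot be told apart, and some of the named genes are also used in cells without motile cilia.

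The promoters were searched for the X-box because it is the DNA element that members of this module are known to share. All 51 genes matched a RefSeq symbol, and 43 had a promoter of 300 bases (250 before to 50 after the start, RefSeq, build GRCr8). The element was searched on both strands as its 2 arms, GTNNCC and GNAAC, with any 3 bases between them. They were present in 8 of 43 promoters (18.6%), against 577 of 27457 promoters of all genes (2.1%). Each of the 8 is printed below with 13 bases on either side, in the direction of transcription, and the capitals mark the X-box.
Dnah2, chr10:54766045-54766084, minus strand: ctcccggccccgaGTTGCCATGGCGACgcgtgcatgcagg
Dnah12, chr16:1944677-1944716, plus strand: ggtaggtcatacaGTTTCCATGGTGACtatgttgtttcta
Dnaaf2, chr6:93406385-93406424, minus strand: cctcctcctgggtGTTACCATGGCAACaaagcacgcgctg
Dnaaf5, chr12:20606484-20606523, minus strand: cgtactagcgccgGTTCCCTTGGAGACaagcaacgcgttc
Tekt4, chr10:14992258-14992297, plus strand: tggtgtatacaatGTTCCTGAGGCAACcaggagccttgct
Cfap44, chr11:69789896-69789935, minus strand: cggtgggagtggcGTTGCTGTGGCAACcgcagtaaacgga
Cfap45, chr13:87521805-87521844, plus strand: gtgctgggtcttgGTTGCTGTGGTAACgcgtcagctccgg
Cfap298, chr11:43677587-43677626, minus strand: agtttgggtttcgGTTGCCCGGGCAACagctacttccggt

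The Dnaaf2 and Cfap298 elements matched the letters on both strands, and the other 6 matched on the strand opposite to transcription. The first base of the element lay 13 bases before the start in Cfap45 and Tekt4, 17 in Cfap44, 30 in Dnaaf5, 45 in Dnah2, 62 in Dnah12, 88 in Dnaaf2 and 231 in Cfap298. The same search found the X-box in 10 of 44 promoters (22.7%) of a list of other motile cilia genes, in 3 of 30 of the intraflagellar transport and BBSome list and in 0 of 17 astrocyte promoters. The forkhead core TGTTTAC, the letters to which FOXJ1-type factors bind, was in 2 of 43 members' promoters (4.65%) and in 3.77% of all promoters, which are like shares. A match is a description of letters, not a bound site.

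The mean levels of the 51 genes ran from 0.518 TPM for Dnah2 to 129 TPM for Cfap36. Only 4 of them had a mean of at least 20 TPM, Cfap36, Cfap298, Cfap20 and Cfap410, and these made up between 51.01% and 64.7% of the summed TPM of the module in a sample. Cfap36 (ENSRNOG00000003901), which binds the small GTPase ARL3, was listed at 126, 97.4 and 145 TPM in JA 1 to 3, at 131, 149 and 125 TPM in SNI 1 to 3, and at 117, 123 and 144 TPM in PLM 1 to 3. Cfap298, which acts in the assembly of dynein arms, lay between 42.2 and 52.5 TPM in every sample. Cfap20, a protein at the inner junction of the doublet, lay between 39.8 and 47.4 TPM. Cfap298 and Cfap20 were nearly flat, while Cfap36 and Cfap410 differed more between samples.

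Among the radial spoke genes, Rsph1 had the highest mean level and Rsph9 the next. Rsph1, a protein of the spoke head, was at 10.8, 18.9 and 16.7 TPM in JA 1, 2 and 3, at 8.38, 14.3 and 18.3 TPM in SNI 1, 2 and 3, and at 11.6, 11.9 and 12.9 TPM in PLM 1, 2 and 3. JA 1 and SNI 1 were low, JA 2 and SNI 3 were high, and the PLM samples lay within the range of both other groups. Rsph9, another spoke head protein, was at 13.02, 13.97 and 15.5 TPM in JA, at 9.41, 12.7 and 16.8 TPM in SNI and at 11.97, 11.01 and 12.1 TPM in PLM, again lowest in replicate 1 of JA and of SNI. Rsph4a, also of the spoke head, was at 3.27 TPM in JA 1 against 5.71 TPM in JA 2, and at 2.82 TPM in SNI 1 against 5.1 TPM in SNI 3. Rsph3, a spoke stalk protein, did not share this pattern, with 5.04, 5.01 and 5.06 TPM in SNI 1 to 3.

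The tektins, filament proteins of the doublet lumen, differed among themselves. Tekt1 was at 13.2, 16.8 and 16.2 TPM in JA, at 10.7, 17.3 and 15.3 TPM in SNI and at 12.1, 11.7 and 12.5 TPM in PLM. Tekt2 was at 2.38, 5.10 and 4.66 TPM in JA, at 2.51, 4.21 and 5.28 TPM in SNI and at 3.70, 4.10 and 3.92 TPM in PLM. In both genes JA 1 and SNI 1 were the low samples of their own groups, and the PLM samples lay close together. Tekt3 stood apart, with 2.5, 1.66 and 8.29 TPM in JA, 2.77, 8.39 and 3.22 TPM in SNI and 1.77, 1.55 and 2.82 TPM in PLM. It was high only in JA 3 and SNI 2, the pair of samples with the highest summed TPM of a list of 6 Schwann cell markers. That sum was 690, 126 and 7894 TPM in JA, 580, 4493 and 1598 TPM in SNI and 277, 951 and 3305 TPM in PLM, and its part in the Tekt3 values was not tested.

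Among the dynein genes the heavy chains, the motor subunits, were all at low levels, with no mean above 2.72 TPM. Dnah12, an inner arm heavy chain and the highest of the class, was at 2.69, 2.52 and 2.39 TPM in JA, at 1.37, 4.08 and 2.69 TPM in SNI and at 2.73, 2.34 and 3.71 TPM in PLM. Dnah1, also of the inner arm, was at 1.31, 2.46 and 1.56 TPM in JA, at 0.99, 2.16 and 2.78 TPM in SNI and at 1.24, 1.59 and 1.81 TPM in PLM. All 7 heavy chains above the level were lowest within the SNI group in SNI 1, and the widest SNI range in this class was that of Dnah12. The intermediate chains of the outer arm had the same low sample: SNI 1 and SNI 3 held 1.68 and 3.86 TPM of Dnai1, and 0.75 and 1.75 TPM of Dnai2. The JA values of Dnai1, at 2.56, 2.47 and 2.34 TPM, were by contrast close together.

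The Dnaaf genes, whose products assemble dynein arms in the cytoplasm before they enter the cilium, differed among themselves. Dnaaf5 was at 6.5, 7.28 and 6.11 TPM in JA, at 6.08, 5.97 and 6.44 TPM in SNI and at 4.11, 5.03 and 5.27 TPM in PLM. Dnaaf2 was at 4.11, 4.62 and 4.97 TPM in JA, at 4.43, 5.02 and 4.99 TPM in SNI and at 4.13, 3.74 and 4.34 TPM in PLM. Every PLM value of Dnaaf5 lay under every value of the other groups. Dnaaf1 was at 1.59, 2.63 and 3.22 TPM in SNI, and Dnaaf3 ran from 0.61 to 1.51 TPM and Dnaaf4 from 1.2 to 2.38 TPM over the 9 samples. Drc1, a scaffold of the nexin-dynein regulatory complex, was at 4.18, 5.16 and 4.92 TPM in JA, at 3.38, 4.77 and 6.16 TPM in SNI and at 2.71, 3.0 and 2.72 TPM in PLM. Drc3, of the same complex, was at 5.86, 8.04 and 7.69 TPM in JA, at 7.05, 7.67 and 9.44 TPM in SNI and at 5.67, 5.52 and 6.75 TPM in PLM. Drc1 was thus lowest in all 3 PLM samples, and Drc3 did not overlap between PLM and SNI but did between PLM and JA.

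**Figure D1:**
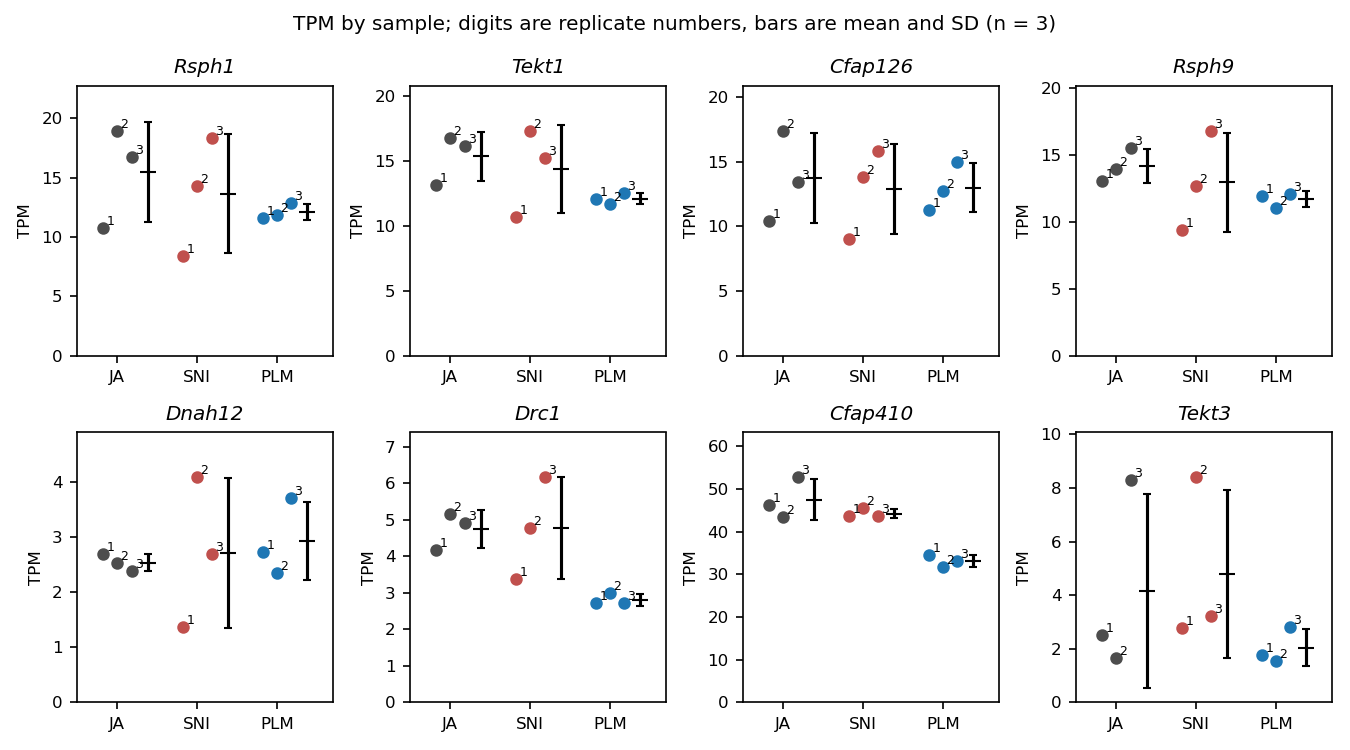
TPM of 8 motile cilia genes in each sample (vertical axis from 0, points labelled with the replicate number, horizontal axis by group), with the group mean and SD (n = 3) as a bar beside the points. Rsph1, Tekt1, Cfap126 and Rsph9 have their lowest JA point in JA 1 and their lowest SNI point in SNI 1, Cfap410 and Drc1 have all 3 PLM points under the other groups, and Tekt3 has its high points in JA 3 and SNI 2.

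Median-centring, the second scale used, subtracts from the log2(TPM + 1) of a sample its median over all 16721 loci. On the deposited scale 43 of 51 genes had their lowest SNI value in SNI 1, against 23.3% of all loci, and 35 had their lowest JA value in JA 1, against 15.0%. These 35 genes were all among the 43, and 8 genes were lowest in neither: Cfap410, Cfap36, Rsph3, Dnaaf5, Cfap97, Cfap300, Dnaaf4 and Rsph6a. After median-centring the counts were 46 genes for SNI 1 and 42 for JA 1. On that scale 48.74% and 48.42% of all loci were higher in JA 2 and JA 3 than in JA 1. In SNI 2 and SNI 3 48.82% and 51.3% of all loci were higher than in SNI 1. Centring moves all loci too, so the rise of the counts was not read as a stronger pattern. On the deposited scale the highest SNI value was in SNI 3 for 37 genes (25.7% of all loci) and the highest JA value in JA 2 for 30 genes (24.9% of all loci). In the PLM group the lowest value was in PLM 1 for 33 genes, where 46.8% of all loci had theirs.

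The size of this difference was read as the ratio of SNI 3 to SNI 1. Its median over the 51 genes was 1.81, against 0.953 over all loci, and it ran from 0.818 for Rsph6a to 3.01 for Rsph14. The ratio was at least 1.5 in 34 of 51 genes and in 8.48% of all loci, and at least 2 in 17 genes and in 5.11% of all loci. The widest ratios after Rsph14 were those of Dnah7, at 2.84, Dnah1, at 2.81, Cfap99, at 2.67, and Dnah6, at 2.62. On the median-centred scale the members were higher in SNI 3 than in SNI 1 in 47 of 51 cases, with a median log2 difference of 0.65, where all loci had 0.01. They were higher in SNI 2 than in SNI 1 in 48 of 51, higher in JA 2 than in JA 1 in 44 and higher in JA 3 than in JA 1 in 47, with median log2 differences of 0.38, 0.34 and 0.35. These are differences between single samples of 1 group, so no test applies to them.

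**Figure D2:**
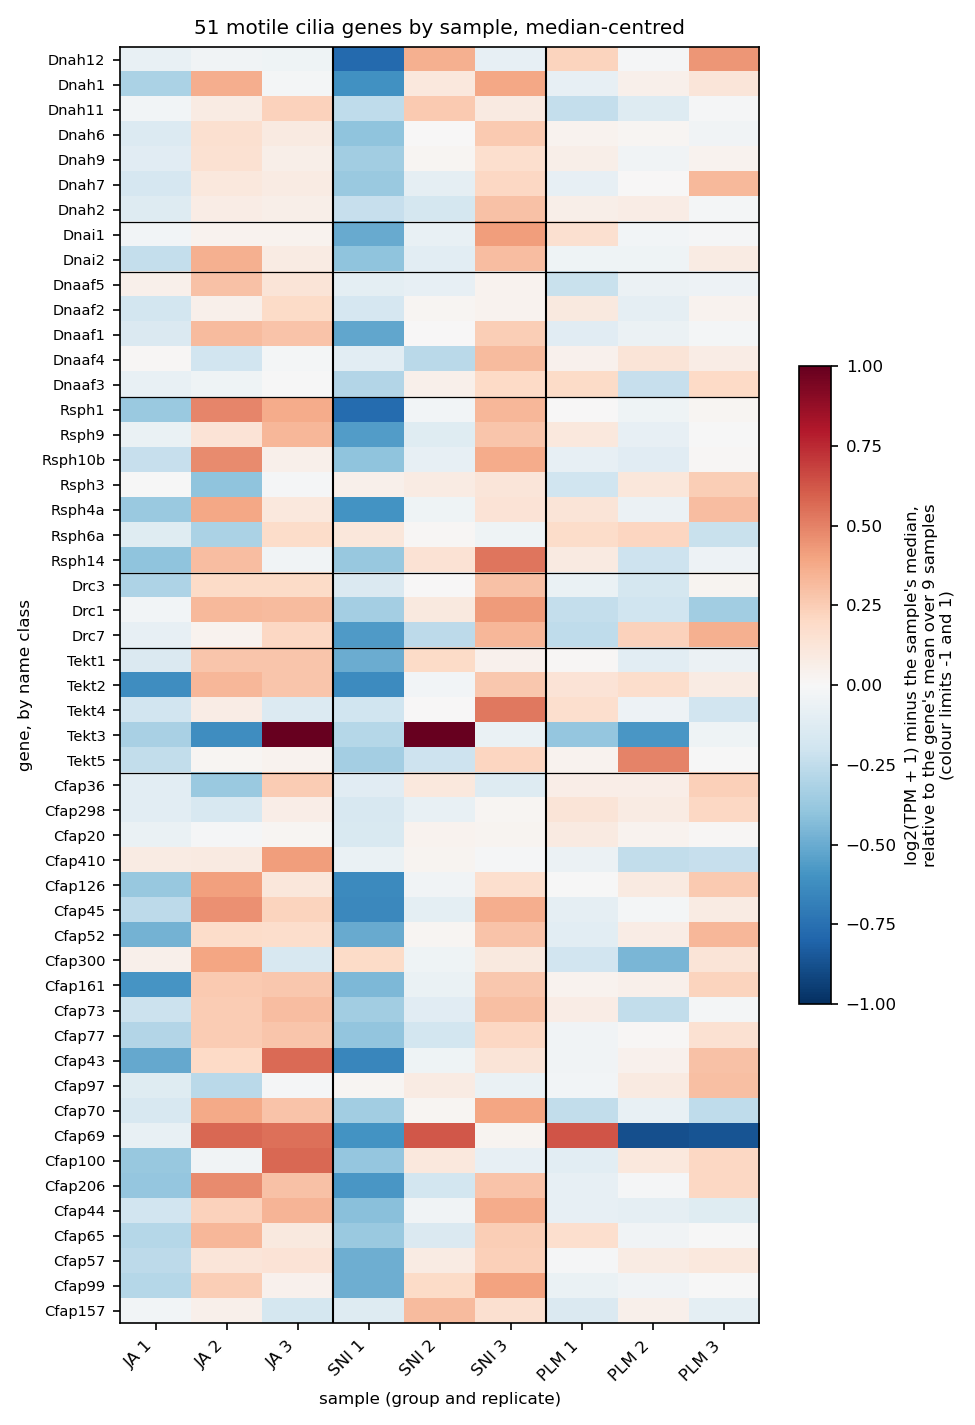
Each row is 1 of the 51 genes, ordered by name class, and each column 1 sample; colour gives log2(TPM + 1) minus the median of the sample, relative to the mean of the gene over the 9 samples, with colour limits at -1 and 1. Of the 51 genes 42 are lowest within JA in the column JA 1 and 46 within SNI in the column SNI 1, and SNI 3 holds the highest SNI value of 38 genes. On this scale 48.74% of all loci are higher in JA 2 than in JA 1, and 51.3% in SNI 3 than in SNI 1.

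The spread within a group was read as the SD of the centred log2 level over its 3 samples. For JA the median SD over the 51 genes was 0.26, for SNI 0.36 and for PLM 0.10, where all loci under 20 TPM had 0.17, 0.15 and 0.13. The 47 members under 20 TPM summed to 160, 216 and 206 TPM for JA 1 to 3, to 145, 205 and 235 TPM for SNI 1 to 3, and to 150.5, 156 and 179 TPM for PLM 1 to 3. The SNI values thus ranged below and above those of both other groups. Spread over 3 samples is itself a rough estimate, and the difference in spread between groups was not tested.

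A list of 54 further motile cilia genes outside the name rule, such as dynein light chains and coiled-coil axonemal proteins, had the same lowest samples, SNI 1 and JA 1, and the same highest, SNI 3, in their mean centred level. Of these, 49 were higher in SNI 3 than in SNI 1, with a median centred log2 difference of 0.57. Dynlrb2, a dynein light chain, was at 20.9, 50.6 and 38.7 TPM in JA, at 18.9, 33.9 and 50.6 TPM in SNI and at 24.98, 30.6 and 30.7 TPM in PLM. Ccdc153 was at 13.4, 22.7 and 20.9 TPM in JA and at 11.4, 19.3 and 22.9 TPM in SNI, and Tmem212, a membrane protein of ciliated cells, at 13.2, 21.1 and 18.9 TPM and at 10.04, 20.8 and 19.3 TPM. JA 1 and SNI 1 were again the low samples of their groups. Tppp3 and Dnal1 had the highest levels of that list. Tppp3 did not share the pattern, at 500, 479 and 406 TPM in JA and at 477, 450 and 486 TPM in SNI. Dnal1 had the same low samples within a narrow range, at 143, 152 and 157 TPM in JA and at 148, 151 and 159 TPM in SNI.

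Genes of intraflagellar transport and the BBSome, which also serve the primary cilia that neurons and glia carry, differed less between these samples. Of 38 such genes 24 were higher in SNI 3 than in SNI 1, with a median centred log2 difference of 0.02. Of 10 ependymal markers with no role in motility 9 were higher in SNI 3 than in SNI 1, with a median of 0.24, and 7 were higher in JA 2 than in JA 1, with a median of 0.32. Between JA 3 and JA 1 their median was 0.06, and in JA 2 they were above SNI 3 by a median of 0.32, where the members had -0.04. All 10 of these markers were above 0 in every sample, among them Vim, an intermediate filament protein, at 133 to 336 TPM, Sox2, a transcription factor of neural progenitors and glia, at 72.3 to 89.3 TPM, and Cd24, a surface glycoprotein, at 21.01 to 68.8 TPM. Vim was highest in JA 3 and SNI 2, at 176, 209 and 336 TPM in JA and 133, 262 and 221 TPM in SNI. Cd24 fell over JA 1 to 3, at 52.7, 38.99 and 21.01 TPM, unlike the members. Markers of the choroid plexus, an epithelium of the brain ventricles, had little signal: the 4 tested summed to 6.91 to 18.85 TPM in a sample, and Ttr, its most abundant transcript, was listed at 0 to 8.35 TPM.

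Markers of other cell types differed between the same samples. Of 9 endothelial markers 9 were higher in SNI 3 than in SNI 1, 8 in SNI 2 than in SNI 1, 9 in JA 2 than in JA 1 and 7 in JA 3 than in JA 1, with median centred log2 differences of 0.17, 0.25, 0.49 and 0.18. Markers of meninges and fibroblasts were higher in 7 of 9 in each of these 4 pairs, with medians of 0.44, 0.91, 0.15 and 0.89. The endothelial markers summed to 464 TPM in JA 1 against 597 and 471 TPM in JA 2 and JA 3, to 404 TPM in SNI 1 against 436.5 and 437.5 TPM in SNI 2 and SNI 3, and to 441 to 503 TPM in PLM. The meningeal markers summed to 2031 to 2135 TPM in JA, 1718 to 1795 TPM in SNI and 1579 to 1814 TPM in PLM. Most of each sum was Ptgds, at 1342 to 1757 TPM, so the sums hide wider differences of other genes. Dcn was at 33.9, 20.9 and 179 TPM in JA, at 24.6, 98.4 and 55.0 TPM in SNI and at 16.8, 33.7 and 59.0 TPM in PLM. Astrocyte markers differed the other way within JA. They were lower in JA 3 than in JA 1 in 19 of 19 by a median of 1.11. In JA 2 they were lower than in JA 1 in 16 of 19, by a median of 0.37. Of the 19 astrocyte markers 3 were higher in SNI 3 than in SNI 1 and 10 were higher in SNI 2 than in SNI 1, with medians of -0.12 and 0.03. Oligodendrocyte markers were higher than in JA 1 in 11 of 11 in both JA 2 and JA 3, with medians of 0.24 and 0.26, and microglial markers in 11 and 10 of 12, with medians of 0.36 and 0.27, where the members had 0.34 and 0.35. Between SNI 3 and SNI 1 both of these lists had medians near 0, at -0.0016 and 0.0096. Neuronal markers were higher than in JA 1 in 1 of 15 in JA 2 and 5 of 15 in JA 3, and higher than in SNI 1 in 1 of 15 in SNI 2 and 5 of 15 in SNI 3, with medians of -0.49, -0.18, -0.29 and -0.10. Schwann cell markers were higher in 6 of 6 in SNI 3 and SNI 2 than in SNI 1 and in JA 3 than in JA 1, and in 0 of 6 in JA 2. Blood markers (hemoglobin and other red cell genes) were higher than in JA 1 in 4 of 5 in JA 2 and 5 of 5 in JA 3, with medians of 0.105 and 1.19. Against SNI 1 they were higher in 3 of 5 in SNI 2 and 0 of 5 in SNI 3, with medians of 0.13 and -0.82. The part of these cell types in the members' values was not tested.

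**Figure D3:**
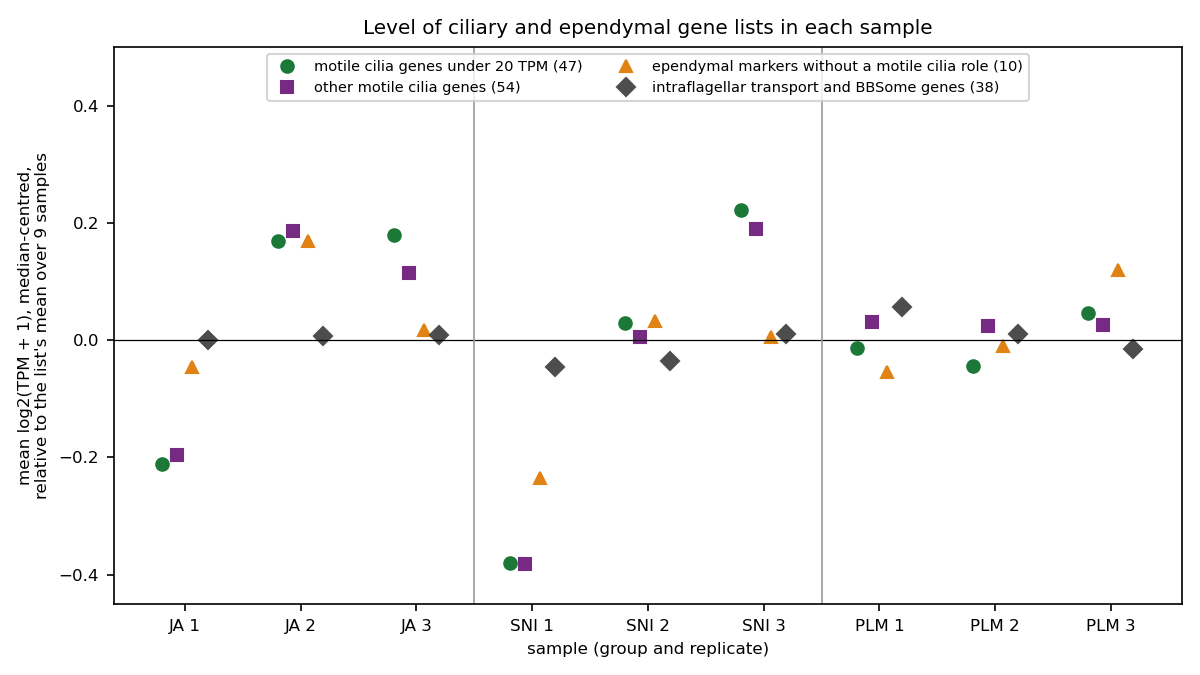
The mean log2(TPM + 1) of 4 gene lists in each sample after median-centring, relative to the mean of each list over the 9 samples; points are samples, in the order JA, SNI and PLM. The 47 members under 20 TPM lie at -0.38 in SNI 1 and 0.22 in SNI 3, the other motile cilia genes at -0.38 and 0.19, and the intraflagellar transport and BBSome genes stay between -0.05 and 0.06 in all samples.

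The comparison of PLM with SNI asked whether the drug combination changed these genes in injured rats. One member passed limma's test after Benjamini-Hochberg adjustment over all loci: Cfap410, a basal body protein also linked to DNA repair, was lower in PLM. It was at 43.7, 45.5 and 43.7 TPM in SNI 1 to 3 and at 34.5, 31.8 and 33.2 TPM in PLM 1 to 3, so that the groups did not overlap and the PLM mean of 33.1 ± 1.35 TPM (SD, n = 3) was 0.749 times the SNI mean of 44.3 ± 1.04 TPM. On the log2 scale this was a change of -0.41 (standard error 0.05, limma adjusted p = 0.0164). The JA values, 46.4, 43.4 and 52.7 TPM, lay with SNI. The call was lost after median-centring (log2 fold change -0.16, limma adjusted p = 0.332) and with a replicate block, where 0 of 16721 loci were lower at that threshold. It was also lost without 5 of the 6 samples in turn, where limma's adjusted p ran from 0.0501 without SNI 3 to 0.0750 without PLM 2.

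One of 51 members at an adjusted p under 0.05 stood beside 11.4% of all loci. At an unadjusted p under 0.05, 8 members were lower in PLM and 0 were higher, where 34.3% of all loci were lower and 1.17% higher. The 8 became 20 without SNI 1 (26.2% of all loci), 2 without SNI 2 (33.3%), without SNI 3 (29.3%) or without PLM 1 (23.5%), and 4 without PLM 2 (26.6%). The groups did not overlap for 9 members lower in PLM (40% of all loci) and 0 higher (1.6%). No member passed the thresholds of the study, a p under 0.05 with an absolute log2 fold change above 1, which 1.38% of all loci did. In the fit to all 6 samples each of these shares of the members was below that of all loci, which was not so for the 20 of 51 without SNI 1, and no difference of shares was tested. Their median log2 fold change was -0.18, with 44 of 51 below 0, and that of all loci was -0.21, with 14038 of 16721 below 0. The difference of the means was smaller than the larger of both SDs for 38 of the 51 genes, a count that was not made over all loci.

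The other members with the smallest p in this comparison had the following values. Drc1 had a mean of 2.81 ± 0.16 TPM in PLM and 4.77 ± 1.39 TPM in SNI (n = 3 each), a log2 fold change of -0.57 (standard error 0.19, limma adjusted p = 0.0923). Cfap20 was at 42.8, 47.4 and 46.4 TPM in SNI and at 39.8, 40.2 and 41.0 TPM in PLM, a log2 fold change of -0.17 (limma adjusted p = 0.0937) that turned to 0.08 after median-centring. Dnaaf5 had a log2 fold change of -0.31 (limma adjusted p = 0.0992). Cfap157, a basal body protein, was at 0.98, 1.63 and 1.32 TPM in SNI and at 0.54, 0.86 and 0.73 TPM in PLM, a log2 fold change of -0.43 (limma adjusted p = 0.101). None of these 4 passed the adjusted threshold, although their groups did not overlap. After median-centring the log2 fold changes of Drc1 and Dnaaf5 were -0.32 and -0.06, and that of Cfap157 also became smaller.

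Median-centring adds the same amount to every log2 fold change of a comparison, so it moves the members and all loci together. In PLM versus SNI on that scale, at an unadjusted p under 0.05, 0 members were lower and 1 was higher, where 6.47% of all loci were lower and 10% higher, and 0 passed limma's adjusted p, against 0.592% of all loci. The single gene was Cfap298, with a log2 fold change of 0.21 (limma adjusted p = 0.219), while its TPM means were nearly equal, at 49.6 ± 2.11 in SNI and 48.2 ± 3.71 in PLM. The median over the members became 0.07 and that over all loci 0.04. The 13 protein genes of the mitochondrial genome took 31.3% to 32.8% of TPM in PLM, 23.7% to 26.1% in SNI and 25.3% to 32.8% in JA. With those genes left out and the rest rescaled, 1 member was lower at an unadjusted p under 0.05 (15.2% of all loci) and Cfap410 had a log2 fold change of -0.27 (limma adjusted p = 0.105). Astrocyte markers also moved with the group: 18 of 19 fell in PLM at limma's adjusted p under 0.05, and 12 did so after median-centring. Their summed level was 2852 to 3342 TPM in PLM, 5809 to 6431 TPM in SNI and 3248 to 6364 TPM in JA. On the centred scale blood markers were higher in PLM in 5 of 5 cases (4 at limma's unadjusted p under 0.05). Endothelial markers were higher in 9 of 9 (6), microglial in 11 of 12 (8) and oligodendrocyte in 11 of 11 (5), where 10% of all loci were higher at that threshold. Schwann cell markers were lower in 6 of 6 (0), meningeal in 6 of 9 (2) and neuronal in 7 of 15 (0). The part of any of these markers in the members' values was not tested.

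**Figure D4:**
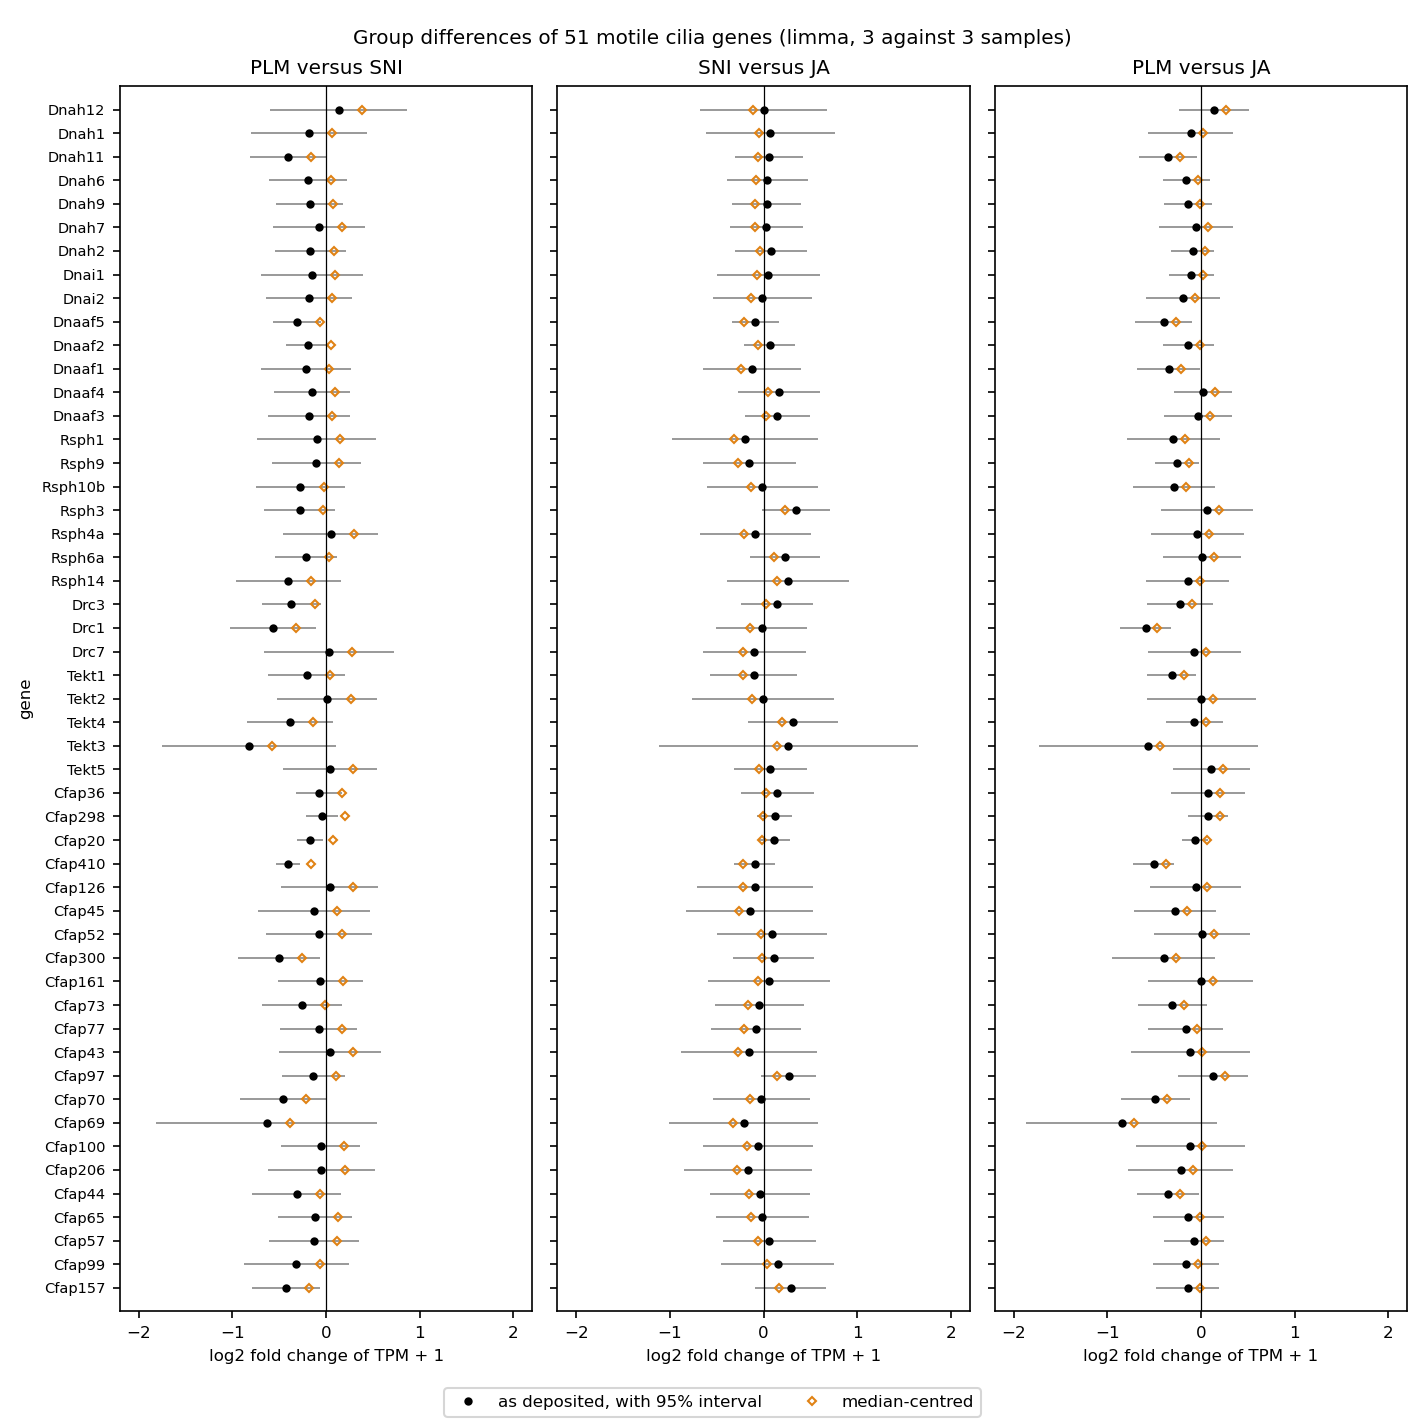
Log2 fold change of TPM + 1 for the 51 genes in PLM versus SNI, SNI versus JA and PLM versus JA (3 against 3 samples); filled points with 95% intervals are the deposited scale and open diamonds the median-centred scale. In PLM versus SNI 44 of 51 filled points lie below 0, as do 14038 of all 16721 loci on that scale. There 34 of 51 diamonds lie above 0, as do 9844 of all loci after centring. Every interval of SNI versus JA includes 0.

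The comparison of SNI with JA asked what the injury did. No member passed limma's adjusted p (0% of all loci), and 0 members were lower and 0 higher at an unadjusted p under 0.05, where 1.01% of all loci were lower and 5.97% higher; 1 member was higher without JA 1 (15.9% of all loci) and 1 without SNI 1 (2.47%). The groups did not overlap for 0 members lower (1.73% of all loci) and 2 higher (11.8%), Rsph3 and Cfap97, and no member passed the thresholds of the study (0.496%). Rsph3 was at 4.53, 2.91 and 3.95 TPM in JA against 5.04, 5.01 and 5.06 TPM in SNI, a log2 fold change of 0.35 (standard error 0.15, limma adjusted p = 0.609). Cfap97 was at 3.32, 2.65 and 3.19 TPM in JA against 4.01, 4.09 and 3.53 TPM in SNI, a log2 fold change of 0.27 with the same adjusted p by limma. Cfap157, Tekt4 and Cfap20 came next by p, with log2 fold changes of 0.29, 0.32 and 0.11, and limma's adjusted p of 0.609, 0.616 and 0.618. The value of Cfap20 turned to -0.01 after median-centring.

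The median log2 fold change of the members in SNI versus JA was 0.03, and that of all loci 0.11. The half-width of the 95% interval of a log2 fold change was 0.17 for Cfap20, the narrowest, 0.50 at the median of the members and 1.38 for Tekt3, the widest, and Rsph1 had an interval from -0.98 to 0.59. After median-centring 0 members were lower (3.28% of all loci) and 0 higher (1.75%) at an unadjusted p under 0.05, and 0 passed limma's adjusted p (0% of all loci). Their median was then -0.09, against -0.01 over all loci. In 46 of 51 genes the difference of the means was smaller than the larger SD, again a count not made over all loci.

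The comparison of PLM with JA shares its samples with both others. No member passed limma's adjusted p (0.0179% of all loci). At an unadjusted p under 0.05, 9 members were lower and 0 higher, where 10.2% of all loci were lower and 1.21% higher. The 9 became 2 without JA 2 (7.05% of all loci), 3 without PLM 1 (5.21%), 4 without JA 3 (17.9%) and 4 without PLM 2 (5.41%), while 13 were lower without JA 1 (7.07%). The groups did not overlap for 12 members lower (15.2%) and 0 higher (2.02%), and 0 passed the thresholds of the study (0.664%). The 9 genes were Cfap410, Drc1, Cfap70, Dnaaf5, Tekt1, Dnah11, Rsph9, Cfap44 and Dnaaf1. The median log2 fold change over all 51 members was -0.13, against -0.09 over all loci. The difference of the means was smaller than the larger SD for 32 of the members, a count not made over all loci. After median-centring 3 members were lower (4.19%), Drc1, Cfap410 and Dnaaf5, 1 was higher (5.55%), Cfap298, and 0 passed limma's adjusted p (0.0239%).

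In PLM versus JA, Cfap410 had a log2 fold change of -0.50 (standard error 0.09, limma adjusted p = 0.303). Drc1 had -0.59 (standard error 0.11, limma adjusted p = 0.308), from a JA mean of 4.75 ± 0.51 TPM to a PLM mean of 2.81 ± 0.16 TPM (n = 3 each). Cfap70, a protein of the outer dynein arm region, was at 2.98, 4.40 and 3.87 TPM in JA and at 2.09, 2.67 and 2.35 TPM in PLM, a log2 fold change of -0.49 (limma adjusted p = 0.385). Dnaaf5 had -0.40 (limma adjusted p = 0.385), and Tekt1 had -0.31 (limma adjusted p = 0.401). All 5 genes had every PLM value under every JA value, and an exact permutation test of 3 against 3 samples could not go below p = 0.10 for any of them.

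Cfap69, a protein of the central apparatus, varied most within PLM. It was at 2.89, 4.71 and 4.41 TPM in JA, at 1.85, 5.47 and 3.21 TPM in SNI and at 4.25, 0.94 and 1.03 TPM in PLM. PLM 1 lay with the JA samples, and PLM 2 and PLM 3 lay under every other sample. Cfap126, which lies in the doublet lumen, was at 10.4, 17.4 and 13.4 TPM in JA, at 9.02, 13.8 and 15.8 TPM in SNI and at 11.2, 12.8 and 15.0 TPM in PLM.

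The lists outside the name rule were tested in the same fits. Of the 54 other motile cilia genes 0 fell and 1 rose at limma's adjusted p under 0.05 in PLM versus SNI, where 1876 of all 16721 loci fell and 31 rose, with a median log2 fold change of -0.17, near the -0.18 of the members. That gene was Meig1, needed for spermatid development, at a mean of 1.07 ± 0.16 TPM in PLM and 0.20 ± 0.27 TPM in SNI, named after its values were seen. Its JA mean was 0.32 TPM and its mean over the 9 samples 0.53 TPM. It thus reached the 0.5 TPM minimum only through PLM, the group where it was high, so the filter favoured this call. Of the 38 intraflagellar transport and BBSome genes 5 fell, Wdr35, Kif3a, Ttc30b, Dync2li1 and Bbs2, with a median of -0.22 over the list, where 11.2% of all loci fell. Of 8 genes that control the motile cilia program 1 fell: Rfx4, an X-box factor, was at 3.25, 3.86 and 3.82 TPM in SNI and at 1.33, 1.05 and 1.36 TPM in PLM, a log2 fold change of -1.05 (limma adjusted p = 0.0105). The JA values of Rfx4 were 3.43, 2.37 and 1.49 TPM, in the order of the summed astrocyte markers of JA 1 to 3, at 6364, 5182 and 3248 TPM. That sum was also lower in PLM than in SNI, and its part in the Rfx4 values was not tested. After median-centring the log2 fold change of Rfx4 was -0.80 (limma adjusted p = 0.0637). Rfx2 and Rfx3, which act in ciliated cells, had log2 fold changes of -0.39 and -0.34 and did not pass (limma adjusted p = 0.0953 and 0.0798). After median-centring none of these 3 lists held a gene past limma's adjusted p, and 3, 2 and 2 of their genes were past an unadjusted p under 0.05 in either direction, of 54, 38 and 8, where 16.5% of all loci were. Of the 10 ependymal markers with no role in motility 1 fell in PLM versus SNI as deposited (limma adjusted p = 0.0248), with a median of -0.13 over the list. After median-centring 0 of the 10 passed limma's adjusted p.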

How the data were processed

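RNA of 9 samples was sequenced by the authors with TruSeq libraries. Per the study's methods reads were trimmed and aligned with HISAT2, and StringTie gave the expression values. The processing notes name fastp 0.19.5 and the build GRCh38.p13, a human build, although the gene IDs are of rat. The build actually used is not given in the sources used here. The deposited values are TPM to 2 decimals, which sum to about 1000000 in each sample, so the sequencing depth is unknown. The labels call the samples biological replicates. The p-values of limma set a group difference against the spread between these samples, with a variance estimate that also draws on all loci.

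Groups were compared pairwise with limma 3.58.1 (trend, R 4.3.3) on log2(TPM + 1), fitted to the 6 samples of a comparison over the 16721 loci whose mean reached 0.5 TPM, with Benjamini-Hochberg adjustment over all of them. Fold changes are of TPM + 1, so those of low genes come out too small. The members and lists were chosen with earlier results of these data known. Named were the 2 members of highest mean TPM in each class, the 5 with the smallest p in each comparison and the 5 other motile cilia genes of highest mean; genes named beyond that rule were chosen after their values were seen. Alternatives were median-centring, a pseudocount of 0.1, a minimum of 1 TPM, no filter on low values and leaving out mitochondrial protein genes. Further ones were a fit to all 9 samples, a replicate block and leaving out each sample. Promoters came from RefSeq (GRCr8), with the farthest upstream start where a gene had several.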

Additional observations from a re-analysis of the deposited data

How the results depend on the processing

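With 3 samples a group and unknown depth, small changes of genes near 1 TPM could not be resolved. In PLM versus SNI the number of members at an adjusted p under 0.05 by limma went from 1 to 0 after median-centring, without mitochondrial protein genes and with a replicate block, and ran from 0 to 1 when each sample was left out. The share of all loci lower at that threshold went from 11.2% to 0.514%, 1.48% and 0%, and to between 0.413% and 5.66%. The number lower at an unadjusted p under 0.05 went from 8 to 0 after median-centring (6.47% of all loci, against 34.3%) and to 1 without mitochondrial protein genes (15.2%), and ran from 2 to 20: 20 without SNI 1, 2 without SNI 2, SNI 3 or PLM 1, and 4 without PLM 2. The number higher went from 0 to 1 and the median log2 fold change from -0.18 to 0.073 after median-centring. Cfap20 reversed under that scale, to 0.077 in PLM versus SNI and to -0.012 in SNI versus JA. In SNI versus JA the number higher ran from 0 to 1, with 1 without JA 1 or SNI 1. In PLM versus JA the number lower went from 9 (10.2% of all loci) to 3 after median-centring (4.19%), to 5 without mitochondrial protein genes (6.96%), to 4 in a fit to all 9 samples (12%) and to 4 with the replicate block (7.05%); leaving out samples gave 2 to 13, with 13 without JA 1, 2 without JA 2, 3 without PLM 1, and 4 without JA 3 or PLM 2. The number higher went to 1 and the median to -0.0064 after median-centring, and leaving out samples gave medians from -0.258 (without JA 1) to -0.0855. The causes were not tested. The deviations of same-numbered samples from their group means correlated at -0.05 to 0.12 over all loci, so the replicate numbers were not taken to pair the samples. Over the members alone JA 1 and SNI 1 correlated at 0.65, and the other same-numbered samples of JA and SNI at -0.31 and -0.36, while SNI 3 with JA 2 and SNI 2 with JA 3, of different numbers, reached 0.70 and 0.55. DESeq2 was not run, since the files hold no counts.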
